A study of Mus musculus with 6 samples.

Results

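Adm, Edn1 and P4ha1 were followed here as a vasodilator gene, a vasoconstrictor gene and an enzyme gene of collagen synthesis, each a known target of hypoxia-inducible factors (HIFs). They were taken by symbol from the authors' deposited table of called genes, which lists 637 genes, and all 3 were found there, once each, as genes higher in ischemia. The list is 2.25% of the 28319 genes that the authors' adjusted p-values imply were tested, with 1.47% called higher and 0.784% called lower, and the members were chosen as called genes. RNA of the hippocampus was sequenced in C57BL/6 mice that the labels call wild type and 56 days old. The ischemia group (3 samples) had a focal occlusion of the middle cerebral artery, which models a stroke by cutting off blood to much of one forebrain hemisphere, and the sham group (3 samples) had a sham operation. Both groups are titled 2 h, which could mean a 2 h occlusion or a time point that followed it. The labels do not say whether the samples came from separate animals, which hemisphere was taken or whether blood flow was restored. The spread between these samples, which the permutation p-values below measure, may thus be technical. What spread the authors' p-values measure is not given in the sources. The columns of the authors' deposited table are headed M2 and S2, taken here to stand for the occlusion (MCAO) and the sham operation, and all directions depend on this.

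When oxygen falls, the prolyl hydroxylases that mark HIF alpha subunits for destruction slow down, and the stabilised factor binds short DNA elements beside its target genes. Adrenomedullin, the peptide made from Adm, relaxes vessels through the receptor formed by Calcrl with Ramp2 or Ramp3. Endothelin 1, the peptide made from Edn1, is released mainly by endothelial cells and constricts vessels through the receptor Ednra on smooth muscle. P4ha1 encodes the catalytic alpha subunit of collagen prolyl 4-hydroxylase, which hydroxylates prolines of new collagen chains so that their triple helix holds.

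The promoters of the 3 genes are shown because the HIF binding element has a short core, written ACGTG or GCGTG here. Windows from 250 bases before to 50 bases after the RefSeq start site (GRCm38.p6) were searched on both strands for these letters. The capitals mark the matches, and a match on the other strand reads CACGT or CACGC. The P4ha1 stretch ends before the first start that RefSeq gives for any of its transcripts, so it is shorter.

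Adm, chr7:110627407-110627656, plus strand: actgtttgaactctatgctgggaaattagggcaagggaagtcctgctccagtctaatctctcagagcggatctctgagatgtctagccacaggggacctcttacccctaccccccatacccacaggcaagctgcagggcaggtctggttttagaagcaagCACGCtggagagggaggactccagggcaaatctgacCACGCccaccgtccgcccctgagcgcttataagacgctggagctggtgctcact
Edn1, chr13:42301226-42301475, plus strand: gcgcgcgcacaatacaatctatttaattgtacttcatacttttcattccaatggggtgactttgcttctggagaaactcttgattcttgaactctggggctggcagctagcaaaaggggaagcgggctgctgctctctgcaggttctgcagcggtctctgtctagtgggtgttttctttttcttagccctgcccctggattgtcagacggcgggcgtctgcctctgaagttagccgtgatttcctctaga
P4ha1, chr10:59323046-59323196, plus strand: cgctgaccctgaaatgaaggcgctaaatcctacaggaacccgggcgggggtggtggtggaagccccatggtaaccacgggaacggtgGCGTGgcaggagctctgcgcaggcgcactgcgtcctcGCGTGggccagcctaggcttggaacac

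Adm held 2 matches, both of the GCGTG form, whose first bases lay at -90 and -54 from the start site. Edn1 held 1 match, of the ACGTG form, and it lay after the start site, with its first base at 22. P4ha1 held 3 matches, with first bases at -163, -126 and -16, and the nearest of these was of the ACGTG form. That nearest match lies after the first start that RefSeq gives for any P4ha1 transcript. The match after the Edn1 start and the nearest P4ha1 match are shown with their neighbouring bases.

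Edn1, chr13:42301485-42301514, plus strand: tatctctggctgCACGTtgcctgtgggtga
P4ha1, chr10:59323268-59323297, plus strand: tgtgacagagcgCACGTagcgagggctgcg

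At least 1 of the cores was found in 43.8% of all 32851 RefSeq promoter windows of this length, ACGTG in 19.6% and GCGTG in 32.4%, so such letters alone are common. The E-box CACGTG, which contains ACGTG, was not matched in the 3 windows and was found in 7.15% of all windows. TGANTCA, the AP-1 motif, and TGACGTCA, the cAMP response element, were not matched in the 3 windows either, and were found in 7.81% and 1.79% of all windows. TATAAA was matched in the P4ha1 window alone, at 40, and was found in 13.6% of all windows. A match describes the letters and is not evidence of binding, and no match says only that the letters are not in this window.

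**Figure D1:**
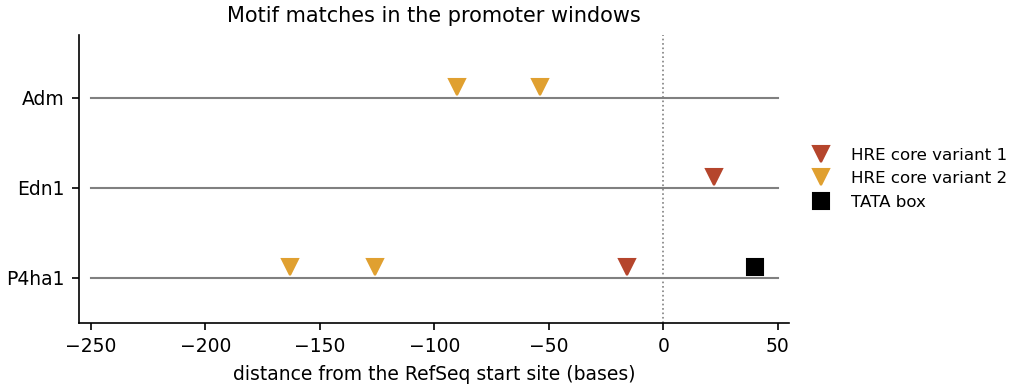
Positions of motif matches in the promoter windows of Adm, Edn1 and P4ha1, as the distance in bases of a match's first base from the RefSeq start site (dotted line). Variant 1 of the HIF element core is ACGTG and variant 2 is GCGTG. Adm has 2 matches, Edn1 has 1 and P4ha1 has 3, and the Edn1 match lies after the start site. The P4ha1 match nearest the dotted line lies after an earlier RefSeq start of that gene.

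The values are normalised read counts, of which the authors' deposited table gives 1 mean per gene and group. For scarce genes these means could be taken apart into whole reads of each library, because each library adds a whole number of reads times a step of its own. This gave the reads of Adm and Edn1 in all 6 libraries, but P4ha1 was too abundant for a single answer, and its values are group means with no error. The libraries are lettered A to C within each group from the smallest to the largest size factor, the relative depth, and the letters cannot be tied to the replicate numbers of the labels. The 6 size factors lay between 0.837 and 1.20, and the absolute depth is unknown.

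Adm, which encodes the vasodilator adrenomedullin, was the member with the largest fold. In sham it was counted with 28, 42 and 41 reads in libraries A, B and C, which are 32.0, 37.9 and 34.2 normalised reads. In ischemia it was counted with 144, 131 and 122 reads, or 172.1, 149.2 and 101.3 normalised reads. Every ischemia library was above every sham library, and the closest pair still differed 2.67-fold. The mean was 140.9 ± 36.2 normalised reads in ischemia and 34.7 ± 2.99 in sham (SD, n = 3 each). In the authors' deposited table this is a log2 fold change of 2.02, or 4.06-fold, with an adjusted p = 2.45e-05. An exact two-sided permutation test on the log2 values of the 6 libraries gave p = 0.10, the smallest that 3 against 3 can give. The summed reads, 397 in ischemia and 111 in sham, put the depth-adjusted fold at 3.90, with a 95% interval of 3.15 to 4.86 (exact binomial) that covers counting error only. The coefficient of variation between ischemia libraries was 25.7%, against 8.79% from counting alone, while in sham it was 8.63%, against 16.6% from counting. Over the 62 higher called genes whose reads could be separated in both groups, its median was 26.2% in ischemia and 35.6% in sham. In bulk tissue such as this, more cells of a type and more RNA per cell cannot be told apart.

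Edn1, which encodes the vasoconstrictor endothelin 1, was the more abundant of the 2 peptide genes by reads and had a smaller fold. Sham libraries A, B and C gave 65, 75 and 113 reads of it, or 74.3, 67.7 and 94.2 normalised reads. Ischemia libraries gave 115, 142 and 255 reads, or 137.5, 161.7 and 211.7 normalised reads. The groups did not overlap, but the gap was narrower than for Adm, with 1.46-fold between the highest sham and the lowest ischemia library. The means were 170.3 ± 37.8 in ischemia and 78.8 ± 13.7 in sham (SD, n = 3 each). The authors' deposited table gives it a log2 fold change of 1.11, or 2.16-fold, with an adjusted p = 0.00386. The exact permutation test again gave its smallest possible p = 0.10. The 512 and 253 summed reads gave a depth-adjusted fold of 2.21 (95% exact interval 1.89 to 2.57, counting error only). An exon of Edn1 overlaps an exon of Gm47118, an antisense gene on the opposite strand, by 35 bases in GENCODE M21, and whether counting used the strand is not stated, so a small part of these reads could belong to the other gene. Adm and P4ha1 had 0 bases of exon shared with another gene in that annotation.

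Non-overlap does not single these genes out. Of the 62 higher called genes whose reads could be separated in both groups, 100% had groups that did not overlap. Groups that do not overlap give the exact permutation test its smallest possible p whatever the fold. That p therefore adds no support for Adm or Edn1, which were picked as called genes.

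P4ha1 had the smallest fold and the largest gain in reads. Its mean was 2947 normalised reads in sham and 4732 in ischemia in the authors' deposited table, a gain of 1785 reads, against gains of 106.2 for Adm and 91.5 for Edn1. The log2 fold change was 0.68, or 1.61-fold, with an adjusted p = 2.03e-04 in the authors' deposited table. No library values or SD can be given for it. By p-value it ranked 150 among the 637 called genes of the authors' deposited table, between Adm at 113 and Edn1 at 281. Its small fold thus had a smaller p-value than the larger fold of the scarcer Edn1.

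**Figure D2:**
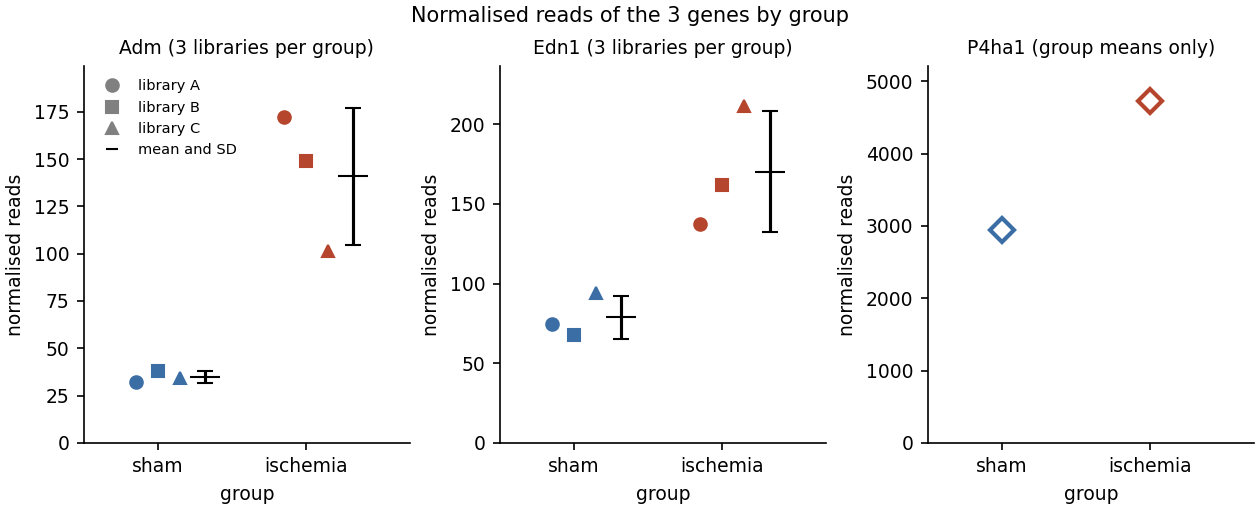
Normalised reads (vertical axes, from 0, on a scale of their own in each panel) of Adm, Edn1 and P4ha1 in sham (blue) and ischemia (red); circles, squares and triangles are libraries A, B and C, the black bar is the mean with its SD, and open diamonds are the authors' group means. The sham libraries of Adm lie between 32.0 and 37.9 and all ischemia libraries at 101.3 or more, while P4ha1 has group means only.

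Read counts depend on transcript length, so levels of different genes were compared per kilobase of exon (GENCODE M21). Most identifiers are Ensembl BALB/cJ ones, so these lengths may differ from those of the gene models counted. On that scale the mean of P4ha1 was 716 in sham and 1150 in ischemia, far above both peptide genes. In sham, Edn1 had a mean of 36.8 normalised reads per kilobase and Adm 21.4. The order between the peptide genes did not depend on the library there: Edn1 lay between 31.7 and 44.0 and Adm between 19.8 and 23.4 normalised reads per kilobase. In ischemia the levels per kilobase overlapped, with Adm between 62.5 and 106.3 and Edn1 between 64.3 and 99.0, and means of 87.0 and 79.6. The order of these means depends on the lengths used, since by reads Edn1 had the higher mean.

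The ratio of Adm reads to Edn1 reads within a library sets vasodilator against vasoconstrictor and does not depend on scaling. It was 0.431, 0.560 and 0.363 in sham libraries A, B and C. It was 1.25, 0.923 and 0.478 in ischemia libraries A, B and C. Libraries A and B of ischemia stood above all of sham, but library C lay below sham library B, so the groups overlapped. On the log2 scale the mean ratio was -0.29 ± 0.71 in ischemia and -1.17 ± 0.32 in sham (SD, n = 3 each, exact two-sided permutation p = 0.20). The difference between those means was 0.89, with a standard error of 0.45. That Adm rose more than Edn1 is therefore not shown beyond the spread between libraries, although the difference of their log2 fold changes in the authors' deposited table is 0.91. Without ischemia library A that difference was 0.61, and without ischemia library C it was 1.28.

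The ischemia libraries ranked the peptide genes in opposite orders. Library A was the highest of its group for Adm and the lowest for Edn1, and library C was the highest for Edn1 and the lowest for Adm. Among the 62 higher called genes with separated reads, library A was the highest of the ischemia group for 25, library B for 21 and library C for 16. Library A was the lowest for 14, library B for 22 and library C for 26, so that highest in A and lowest in C, as for Adm, were the most frequent positions, and Edn1 had the reverse.

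**Figure D3:**
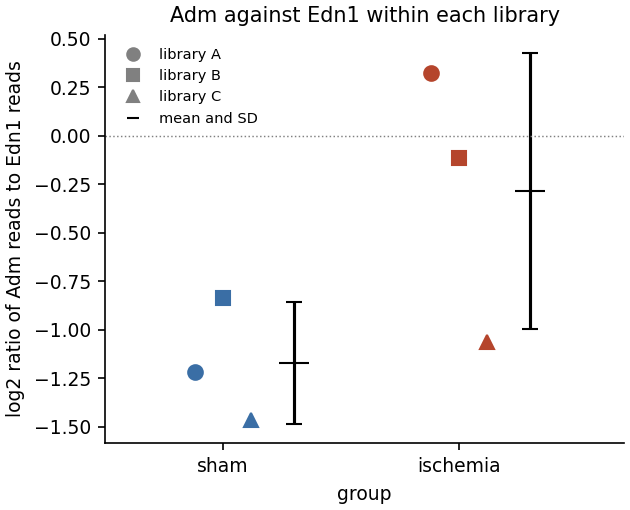
Log2 ratio of Adm reads to Edn1 reads (vertical axis) in each sham (blue) and ischemia (red) library, with circles, squares and triangles for libraries A, B and C and black bars for the mean and SD; the dotted line marks equal reads. Ischemia library C, at -1.06, lies below sham library B, at -0.84, so the groups overlap.

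Among genes called higher at a like abundance, the members were not extreme. The smallest fold among them was larger where the sham mean was lower. The 33 higher called genes within a factor of 2 of the Adm sham mean had log2 fold changes of at least 1.07 and a median of 2.06 in the authors' deposited table, and Adm ranked 18 among them. For Edn1 there were 40 such genes, with log2 fold changes of at least 0.90 and a median of 1.62 in the authors' deposited table, and it ranked 31. For P4ha1 there were 121, with a minimum of 0.44 and a median of 0.79 in the authors' deposited table, and it ranked 72.

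The called genes most like each member were found by distance on the log2 fold change and the log2 sham mean, a measure over 2 group means that says nothing of shared control. Nearest to Adm were C5ar1, the receptor of complement fragment C5a (3.60-fold), the transcript Gm26621 (3.05-fold) and the chemokine receptor-like gene Ccrl2 (3.53-fold) by the authors' deposited table. Nearest to Edn1 were C3ar1, the receptor of complement fragment C3a (2.30-fold), the transcript A930033H14Rik (2.10-fold) and the chemokine gene Ccl6 (2.34-fold) by the authors' deposited table. Nearest to P4ha1 were the fatty acid elongase gene Elovl5 (1.60-fold), the chromatin remodeller gene Smarca5 (1.58-fold) and the zinc finger gene Zfp281 (1.61-fold) by the authors' deposited table. Gm26621 had the library order of Adm in ischemia, with 125.5, 94.5 and 74.7 normalised reads in libraries A, B and C. C5ar1 had 121.9, 138.9 and 83.0 normalised reads and Ccrl2 59.8, 102.5 and 102.9, so these 2 did not. Of the genes nearest to Edn1, C3ar1 had 157.8, 222.1 and 148.6 normalised reads, A930033H14Rik 151.8, 137.8 and 143.6, and Ccl6 148.2, 174.2 and 127.8. None of these 3 was highest in library C, as Edn1 was.

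Most of the other HIF targets looked up here are not in the authors' deposited table. Vegfa, the main growth factor of vessels, Bnip3, a mitophagy receptor, Egln3, an oxygen-sensing prolyl hydroxylase, and Ankrd37, an ankyrin repeat gene, are absent from the authors' deposited table under their symbols and under their RefSeq synonyms. This look-up used symbols only, and 56 of the 637 rows have no symbol. The identifiers of those rows could not be matched to a gene, and their descriptions were not searched for these genes. Absence gives neither their level nor a fold, and a change smaller than the called ones given above may have gone unlisted. Their promoter windows held core matches too, counted on both strands: Bnip3 5, Ankrd37 4, Egln3 1, and Vegfa 2 in one of its windows and 0 in the other. These are not all separate sites. The 2 ACGTG matches of Bnip3 are the 2 strands of 1 E-box CACGTG, and the 2 GCGTG matches of Ankrd37 share bases.

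Of the 57 HIF targets reported here, 5 are listed as higher in the authors' deposited table, 0 as lower and 52 are not listed. The 5 are 8.77% of the list, against 1.47% of all genes tested. This count depends on which genes the list holds, and the list was chosen with earlier results of these data known. A gene taken off this list after the data were seen could raise the count by at most 1. The 3 members were picked as called genes; without them the count is 2 of 54, or 3.70%. The median fold of the 5 was 1.72 in the authors' deposited table, below the 2.10 of all 415 higher genes.

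The other 2 had folds close to that of P4ha1. Cited2, which encodes a protein that competes with HIF alpha for the coactivators p300 and CBP, was 1.72-fold higher (adjusted p = 9.90e-06) and the nuclear receptor gene Rora 1.50-fold higher (adjusted p = 0.00612) by the authors' deposited table. The glycolytic and glucose transport targets on the list, among them Slc2a1, Hk2, Pfkfb3, Ldha and Pdk1, are not listed under their symbols. One row with no symbol carries the description phosphoglycerate kinase 1, the product of the HIF target Pgk1. It was 1.91-fold higher by the authors' deposited table, at an adjusted p = 0.0233, from 103.7 to 198.4 normalised reads. It was not counted among the 5, since its identifier could not be matched to a gene, and whether it is Pgk1 itself is unknown. The descriptions of rows without a symbol were not searched for any other HIF target.

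**Figure D4:**
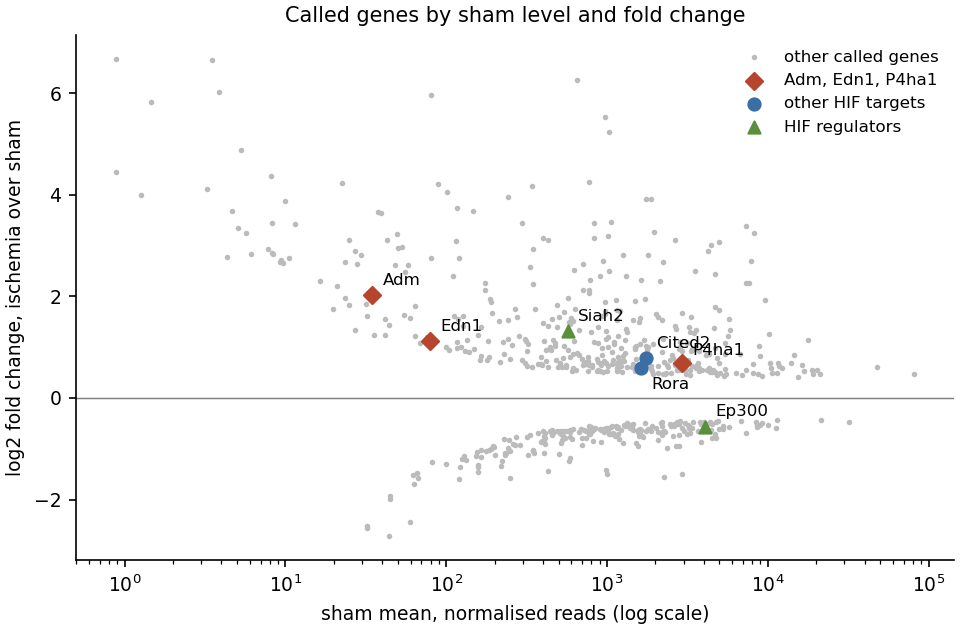
Log2 fold change of ischemia over sham (vertical axis) against the sham mean in normalised reads (horizontal log axis) for the called genes with a sham mean above 0; red diamonds are Adm, Edn1 and P4ha1, blue circles the other listed HIF targets and green triangles HIF regulators. Adm and Edn1 sit at low sham means (34.7 and 78.8) and P4ha1 at 2947, and no called gene lies close to a log2 fold change of 0.

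Of 15 genes for HIF subunits and regulators, 2 were higher, 1 was lower and 12 are not listed, Hif1a, Epas1 and Arnt among the last. Siah2, a ubiquitin ligase that targets the oxygen-sensing prolyl hydroxylases, was 2.49-fold higher by the authors' deposited table, from 569 up to 1415 normalised reads (adjusted p = 1.09e-06). Cited2 is on this list as well. Ep300, which encodes the coactivator p300, was 1.48-fold lower by the authors' deposited table, from 4089 to 2762 normalised reads (adjusted p = 0.0048).

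The partners of the peptides were looked up in the same way. With 2.25% of all genes called, lists of this size would hold few or no called genes, so the counts say little of these systems. Adm was the 1 listed member of 14 genes of the adrenomedullin system, and its receptor genes Calcrl, Ramp2 and Ramp3 and the amidating enzyme gene Pam are not listed. Edn1 was the 1 listed member of 11 genes of the endothelin system, and Edn3, the converting enzyme gene Ece1 and the receptor genes Ednra and Ednrb are not listed. Of 25 other vasodilator genes, Bdkrb2, the bradykinin B2 receptor, was higher, with 46.6, 41.0 and 96.3 normalised reads in ischemia libraries A, B and C against at most 16.0 in sham. This is 6.31-fold by the authors' deposited table, at an adjusted p = 0.0268. Of 22 other vasoconstrictor genes, Ptgfr, the prostaglandin F receptor, was lower, 5.90-fold by the authors' deposited table, at an adjusted p = 0.0458. It rests on 1, 1 and 17 reads in ischemia against 17, 49 and 40 in sham, and without ischemia library C the log2 fold change moved from -2.56 to -4.79.

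The same holds for the lists around P4ha1, set against 2.25% of all genes. It was the 1 listed member of 21 genes of collagen hydroxylation and folding, and its paralogs P4ha2 and P4ha3, the beta subunit gene P4hb and the lysyl hydroxylase genes Plod1 and Plod2 are not listed. Of 25 collagen chain genes, Col10a1 was higher and 24 are not listed. Col10a1 had means of 3.52 in sham and 353 in ischemia by the authors' deposited table, at an adjusted p = 9.69e-05, on 4, 2 and 5 reads in the sham libraries. Its ischemia reads could not be separated by library, so whether the ischemia mean rests on 1 library is unknown.

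Markers of the cells that could carry these transcripts were counted against the 2.25% of all genes that were called, a share at which lists of this size would hold few or no called genes. Of 24 endothelial markers, 2 are listed and both were lower, against 0.784% of all genes: Sox18 by 2.16-fold (adjusted p = 0.00347) and the tight junction gene Ocln by 2.15-fold (adjusted p = 1.97e-04) by the authors' deposited table. Sox18 had 178.1, 128.7 and 139.4 normalised reads in ischemia libraries A, B and C against 366.0, 355.9 and 243.3 in sham. The other 22, with Pecam1, Cdh5 and Cldn5, are not listed, so their levels are unknown. None of 17 pericyte and smooth muscle, 11 choroid plexus or 14 astrocyte markers is listed, a count of 0 in each. Of 13 fibroblast markers the laminin gene Lama1 was lower (2.16-fold, adjusted p = 0.0255) by the authors' deposited table.

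A few blood and immune markers were called higher, against 1.47% of all genes tested. Of 14 neutrophil and monocyte markers, 12 are not listed, and S100a8 and S100a9 were higher, 6.78-fold and 12.9-fold by the authors' deposited table, at an adjusted p = 0.0274 and 0.0340. The ischemia libraries A, B and C had 31.1, 80.9 and 101.3 normalised reads of S100a8 and 26.3, 94.5 and 58.1 of S100a9. Both were lowest in library A, as Edn1 was, but S100a9 was highest in B, and Adm was highest in A. Leaving out 1 library at a time, the S100a8 fold ran from 5.34 to 10.8 and the S100a9 fold from 9.09 to 25.1. Sham libraries A, B and C had only 16, 9 and 6 reads of S100a8 and 1, 4 and 11 of S100a9. Of 14 microglia markers, 12 are not listed, and Fcrls and Ly86 were 1.47-fold and 1.53-fold higher by the authors' deposited table, at an adjusted p = 0.0153 and 0.0367. Of 19 hippocampal neuron markers, the dentate granule genes Lct and Dsp were lower, 2.92-fold and 2.83-fold, by the authors' deposited table, at an adjusted p = 1.28e-12 and 8.44e-07, and the other 17 are not listed. The part of these cells in the values of Adm, Edn1 and P4ha1 was not tested.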

How the data were processed

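Hippocampal RNA of 6 samples was sequenced. The submitters' processing notes name Bowtie 0.12.2 and build mm8 without saying what for; how reads were counted, normalised and tested is not given in the sources. The authors deposited a read signal per gene (mean normalised count per group), its log2 fold change (the log2 ratio of the means within 5.0e-05) and p-values with their adjusted p-values, for called genes only, with 0 columns per sample. Identifiers in 612 of 637 rows are Ensembl BALB/cJ ones, and 56 rows have no symbol.

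The number of genes tested, 28319, was the one whose Benjamini-Hochberg adjustment returned the deposited values in 636 of 637 rows. Library steps were found from integer relations (9) among the 12 lowest means of each group; 1 set gave whole counts in each. Means of at most 450 were then split: 134 of 172 in ischemia and 186 of 197 in sham had 1 solution, and 0 had none. Both searches were tested on simulated data. No model could be fitted, since values per sample of all genes are needed; the single-gene p-values are the authors'.

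The members and the 16 gene lists (294 genes) were chosen with earlier results of these data known; after the data were seen, 1 gene was taken off the HIF target list and is not reported here, and a duplicate, an older name of P3h2, off the collagen hydroxylation list. Genes named are the members, listed genes of those lists, absent HIF targets and the 3 called genes nearest to each member by log2 fold change and log2 sham mean. Promoters came from RefSeq (GRCm38.p6; all 3 members matched) and exon lengths from GENCODE M21. Alternatives were pseudocounts of 1 and 10, thresholds (adjusted p of 0.01, absolute log2 fold change of 1, mean of 50), and leaving out each library. Python 3.11.15, numpy 2.4.6, scipy 1.17.1, pandas 2.3.3, sympy 1.14.0 and matplotlib 3.10.9 were used.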

Additional observations from a re-analysis of the deposited data

How the results depend on the processing

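The direction of Adm, Edn1 and P4ha1 held in the alternatives run for each. Their calls were read again at an adjusted p of 0.01, which the authors' values of all 3 passed. Adm and Edn1 also reach an absolute log2 fold change of 1, while P4ha1, at 0.68, does not. Leaving out 1 library at a time, the log2 fold change ran from 1.85 to 2.21 for Adm, from 0.93 to 1.26 for Edn1 and from 0.61 to 1.28 for their difference. A pseudocount of 10 gave 1.75, 1.02 and 0.73 in turn, and P4ha1 stayed at 0.68. P4ha1 could not be tried without single libraries. Of the 5 higher HIF targets, 2 changed by at least 1 on the log2 scale, and 2 were left on the list without the members, an alternative chosen after the data were seen. Over the other lists, which also hold Adm, Edn1, P4ha1 and Cited2, 11 genes were higher, of which 6 passed an adjusted p of 0.01 and 7 the fold minimum. Without HIF targets these were 7, 2 and 5. Of the 7 lower genes, 5 and 6 passed in turn. No paired analysis was possible because the deposited values are group means, and the separated libraries carry no replicate numbers. Absolute depth is unknown, and genes that were not called have no value to compare.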
